A study of Danio rerio with 12 samples.

Results

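The interaction of genotype with camptothecin asks, gene by gene, whether the transcriptional response to DNA damage differs between zebrafish embryos with and without miR-34a. It was read from all 12 of the 12 libraries of the series, which were fitted together as 4 groups of 3. The interaction estimate is the log2 fold change under camptothecin in the mutants minus the log2 fold change in the wild types. A negative estimate therefore means a smaller rise or a larger fall in the mutants, or a fall in mutants beside a rise in wild types.

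Whole embryos, wild-type or miR-34a-/-, received DMSO or 1 µM camptothecin at 24 hours post fertilisation (hpf), and RNA was taken 4 h later, at 28 hpf. All embryos had been dechorionated, and each library was a pool of 30 to 50 embryos. Controls held 0.005% DMSO. Camptothecin came from a 2 mM stock in DMSO, and no final DMSO content is given for the treated embryos, so whether both treatments held the same amount of DMSO is not known. The labels give no wild-type strain and no description of the mutant allele, which the column names call a deletion. They do not say that numbered libraries came from separate clutches, so p-values measure the spread between pools, which may be partly technical.

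Camptothecin traps topoisomerase I on DNA, and the resulting breaks activate the transcription factor p53. MicroRNA miR-34a is transcribed under p53 control in vertebrates and is loaded into Argonaute. There its seed pairs with sites in the 3' untranslated regions of target mRNAs and lowers their stability or translation. In mammals the named targets of the miR-34 family include cyclin-dependent kinases, Notch receptors, Myc proteins and Bcl-2. If the microRNA shaped the damage response at the level of mRNA, the effect would be sought in this contrast.

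Library totals ran from 13.5 to 27.9 M counts. The row of the mutated gene, listed as mir34, had 9, 9 and 32 counts in the wild-type camptothecin libraries 1, 2 and 3, a single count in wild-type DMSO and 0 counts in all 6 mutant libraries. It was too low to be tested. Every pair of replicates differed by more than counting noise, with a chi-square per degree of freedom of at least 7.64. The wild-type camptothecin libraries stood apart, libraries 1 and 2 more than library 3. Their composition factors (trimmed mean of M values, TMM) were 0.835, 0.877 and 0.962, against 1.01 to 1.09 elsewhere. The summed level of 46 tested microRNA precursor rows was 29.3, 63.1 and 107 CPM (TMM-scaled counts, per M counts) in them, against 95.7 to 118 CPM in the other 9. This group enters every interaction estimate, so call counts are also given without each of its members. List medians are given without library 3 only, which keeps libraries 1 and 2, and not without library 1 or 2. The part of these differences in the interaction was not tested.

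Few single genes passed the test, and most of those that did had a lower response in the mutants. Of 11866 tested genes, 19 (0.160%) passed the quasi-likelihood test of edgeR, with a Benjamini-Hochberg adjusted p under 0.05, and are termed called. Of these, 16 (0.135% of the tested genes) had a negative estimate and 3 (0.0253%) a positive one. Before adjustment, 1797 genes (15.1%) had a p under 0.05, of which 969 (8.17% of tested genes) were negative and 828 (6.98%) positive. If no response differed, 593 genes would be expected at that level. The source of the excess was not tested. At an adjusted p under 0.1 the count was 190 genes (1.60%), 148 negative and 42 positive. The DESeq2 Wald test called 343 of the 6020 genes to which it gave an adjusted p (5.70%), 276 negative and 67 positive. All 19 genes were among them.

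The called differences were modest in size and had low standard errors, which the test itself favours. Absolute estimates ran from 0.66 to 1.10 on the log2 scale, and their median standard error (SE) was 0.15, against 0.22 over all tested genes. An estimate of 1 or more, a 2-fold difference between responses, was seen in 413 tested genes, but their median SE was 0.68 and a single one of them (utp18) was called. Conversely, the 95% interval of the interaction lay within -1 to 1 for 8345 genes, 70.3% of those tested, so for these genes a difference of 2-fold or more between the responses lay outside the interval.

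The number of calls depended on single libraries. Leaving out 1 library at a time gave 0 to 505 calls. The counts were 112, 0 and 1 without wild-type DMSO libraries 1, 2 and 3, and 31, 0 and 505 without wild-type camptothecin libraries 1, 2 and 3. They were 28, 0 and 59 without mutant DMSO libraries 1, 2 and 3, and 0 without any single mutant camptothecin library. Between 1309 and 1705 genes had an unadjusted p under 0.05 in the edgeR fits that called none. The 19 genes had adjusted p-values of 0.0574 to 0.205 in the fits with no call. All 19 kept the sign of their estimate whichever library was left out, in fits that share most libraries. The estimate ran from -1.27 to -0.94 for utp18 and from 0.67 to 0.79 for cdh1. Of the 12 fits, 3 called rnf139, 4 called tgm1l4 and 5 called each of the other 17 genes. With wild-type camptothecin library 3 alone in its group, 55 genes were called, 14 negative and 41 positive. Of the 19 genes, 11 were among those 55.

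**Figure D1:**
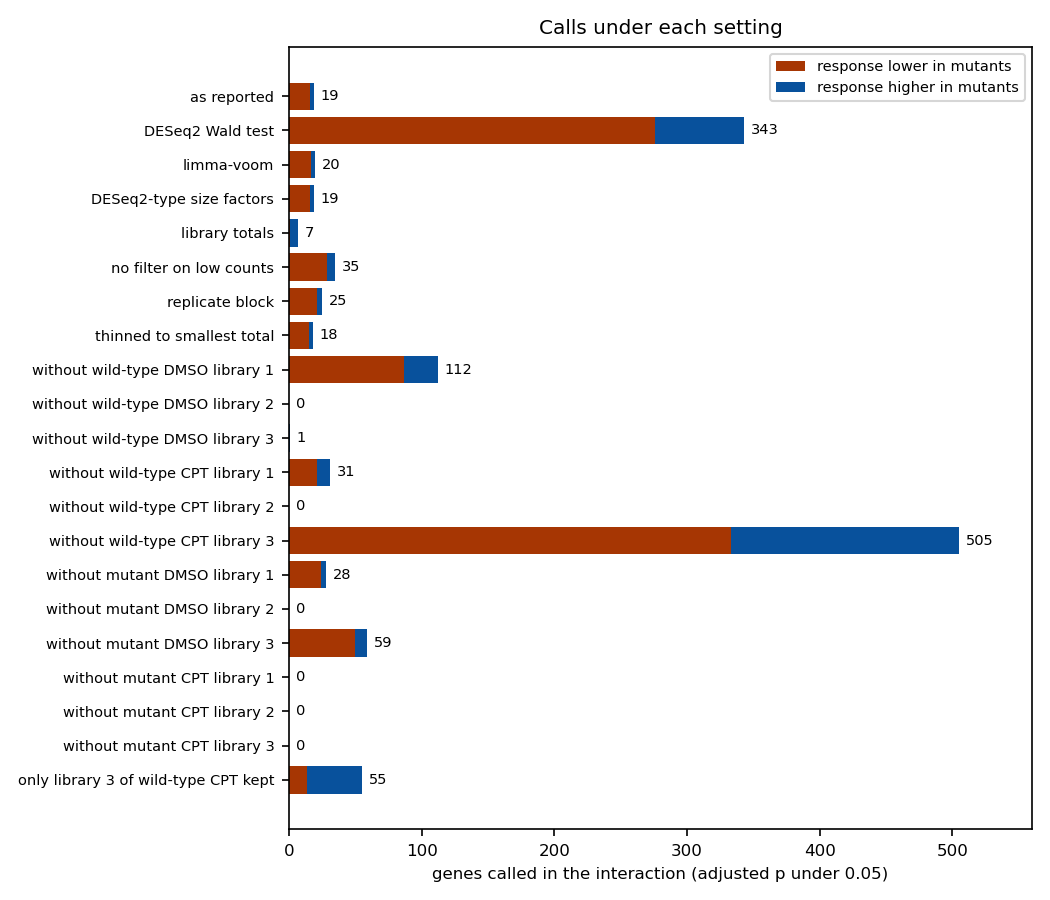
Bars give the number of genes called in the interaction (x axis, adjusted p under 0.05) for each setting (y axis), divided into genes whose camptothecin response was lower (brown) or higher (blue) in mutants. The bars run from 0, for example without mutant camptothecin library 1, to 505 without wild-type camptothecin library 3.

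The balance of directions among the calls differed between scalings. With DESeq2-type size factors it stayed at 16 negative and 3 positive. When counts were scaled by library totals alone, the median estimate of all tested genes moved from 0.0038 to 0.18, and 7 genes were called, 1 negative and 6 positive. Of the 19 genes, 4 were among those 7. Relative to the moved median, the estimates of the 19 genes ran from -1.09 (utp18) to 0.96 (kcnk6). The directions below are relative to the median gene, except where library totals are named.

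Camptothecin raised most of the genes with a negative estimate in wild-type embryos, and in mutants these genes rose with a lower estimate, were not called or fell. Camptothecin raised 15 of the 16 in wild types, where 29.1% of all tested genes were called higher and 60.8% were called in either direction. In mutants 4 of the 16 rose, 7 fell and 5 were not called, where 60.2% of all tested genes were called, 28.5% higher and 31.7% lower. For 6 genes the called changes ran in opposite directions, up in wild types and down in mutants. These contrasts use the same libraries as the interaction and describe its shape. The share of all tested genes with called changes in opposite directions is not given. Selection for a large difference between the responses favours such a pattern.

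The genotypes were further apart after camptothecin than before it for 16 of the 19 genes. The share over all tested genes was not computed. The 19 were selected on the difference between the genotype contrasts of the 2 treatments, so the count only describes them. Mutants differed from wild types by a called amount in 17 of the 19 genes under camptothecin, where 3.29% of all tested genes were called, and in 1 of the 19 under DMSO, where 0.598% were called. The library values of the genotypes did not overlap under camptothecin for all 19 (22.8% of all tested genes), and under DMSO for 14 (17.1%). Wild-type camptothecin and DMSO libraries did not overlap for 18 of the 19 (64.3% of all genes) and those of the mutants for 15 (66.1%). The genotype difference had opposite signs in the 2 treatments for every one of the 19, a pattern that selection for a large difference between both favours. On the linear CPM scale the difference between the changes kept its sign in all 19.

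**Figure D2:**
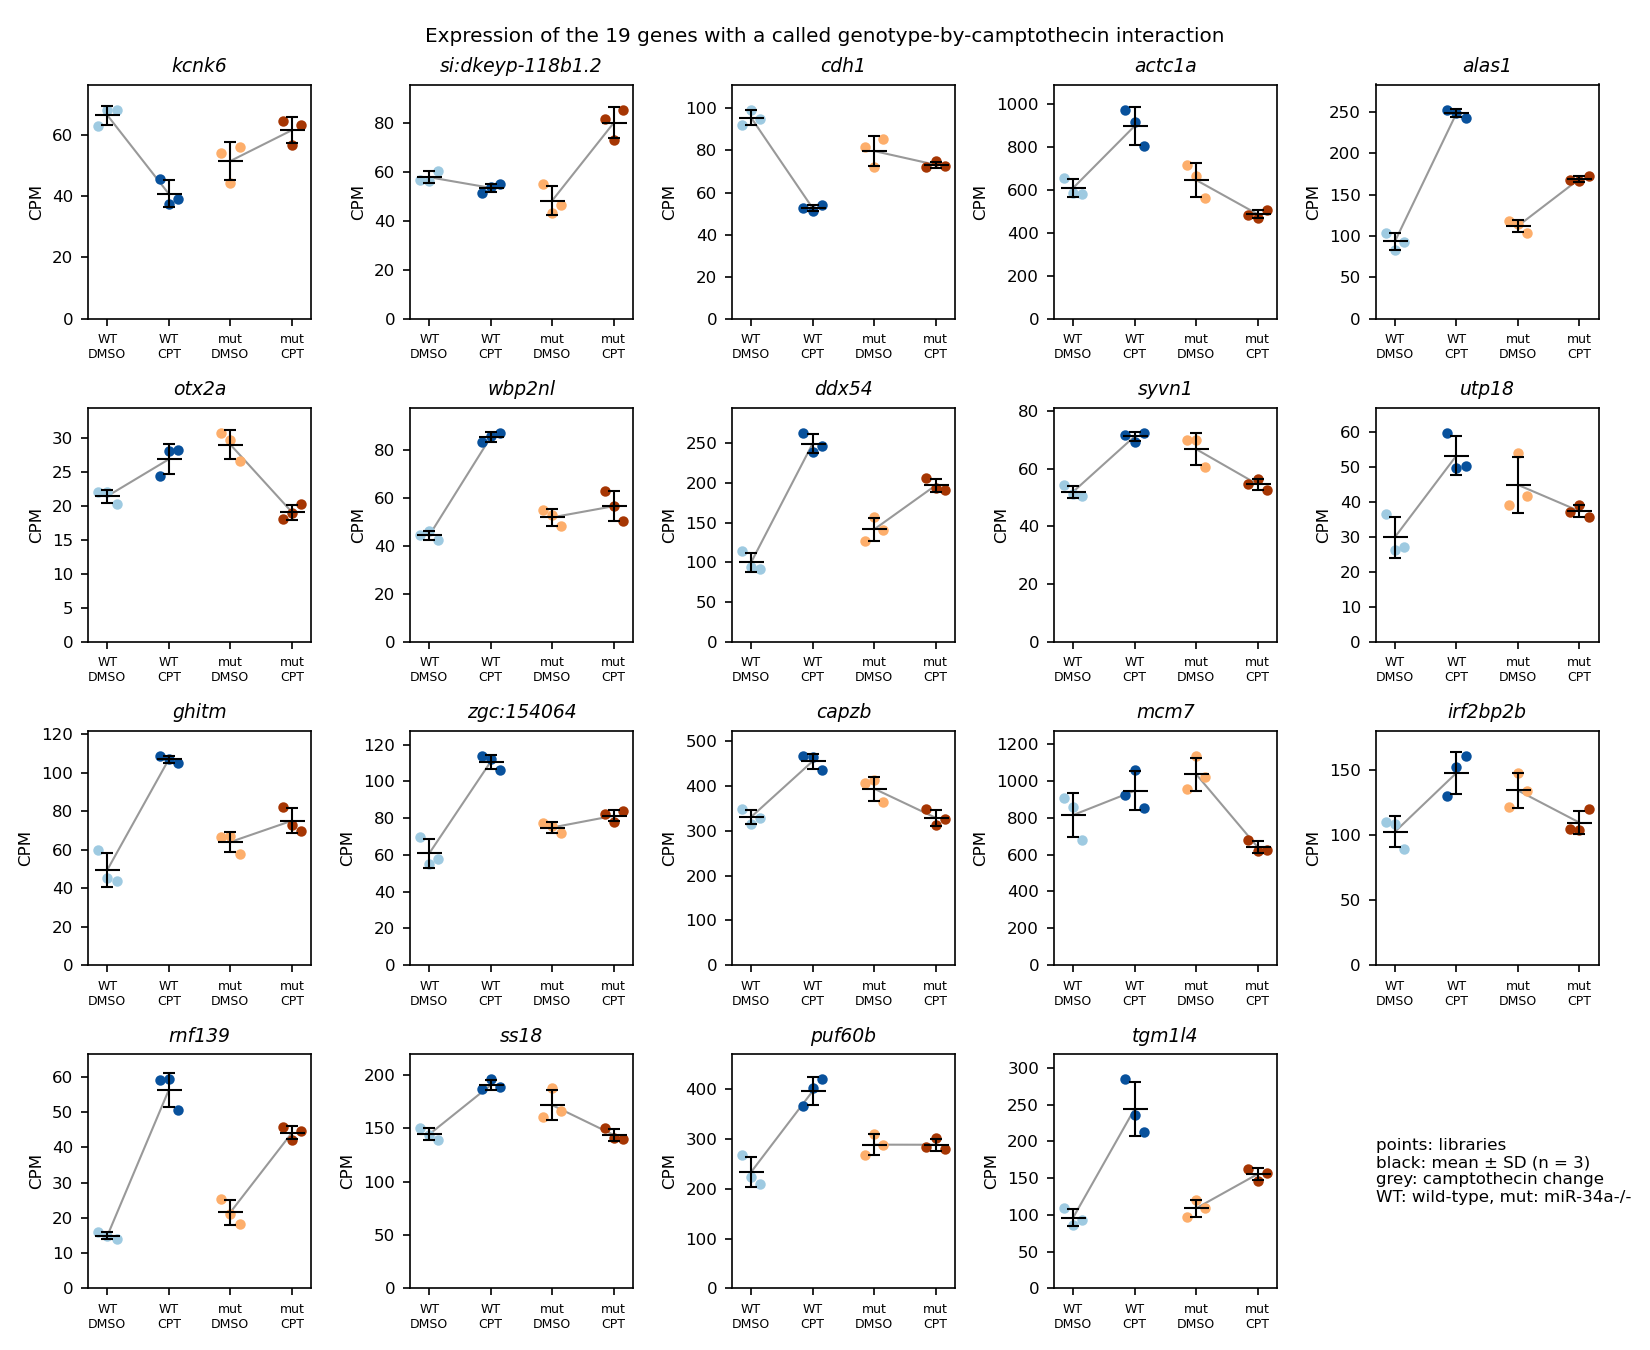
Each panel shows CPM (y axis, linear, from 0) of a called gene in the 12 libraries, by group. Points are libraries, black bars are means ± SD (n = 3), and grey lines join DMSO to camptothecin within a genotype. In cdh1 the wild-type camptothecin libraries lie below all others, and in alas1, ddx54 and wbp2nl they lie above all others.

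The called genes are taken by role, a grouping made after their values were seen. Among genes of RNA processing, ddx54, a DEAD-box RNA helicase of the nucleolus, had 114, 94.4 and 92.0 CPM in wild-type DMSO libraries and 263, 239 and 247 CPM in wild-type camptothecin libraries. The mutants had 127, 157 and 141 CPM in DMSO and 207, 194 and 191 CPM in camptothecin. All 3 mutant DMSO libraries lay above the wild-type ones, and all 3 mutant camptothecin libraries lay below. It rose by 1.32 in wild types and by 0.48 in mutants, an interaction of -0.84 ± 0.15 (SE, adjusted p = 0.0195), and was the single gene of the 19 whose genotype difference was called under DMSO (0.50 higher in mutants, adjusted p = 0.0267).

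The most negative estimate among the 19 called genes, -1.10 ± 0.20 (adjusted p = 0.0195), belonged to utp18, a component of the small-subunit processome that matures ribosomal RNA. Wild types had 36.8, 26.2 and 27.1 CPM in DMSO and 59.9, 49.8 and 50.4 CPM in camptothecin, a called rise of 0.83. Mutants had 39.2, 54.0 and 41.7 CPM in DMSO and 37.3, 39.2 and 35.8 CPM in camptothecin, a difference of -0.27 that was not called (adjusted p = 0.103). The mutant DMSO libraries thus overlapped with the wild-type camptothecin ones. The splicing factor gene puf60b went from 234 ± 30.1 to 396 ± 27.9 CPM in wild types (SD, n = 3) and from 289 ± 21.5 to 288 ± 11.8 CPM in mutants, with an interaction of -0.76 ± 0.15. Its paralog puf60a had an estimate of -0.59 (adjusted p = 0.069, not called). How reads shared by such copies were assigned is not given in the sources used here.

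Genes of the actin cytoskeleton and of muscle were represented by actc1a, which encodes an alpha actin of muscle, and capzb, which encodes the beta subunit of the actin capping protein. In wild types actc1a had 656, 586 and 579 CPM in DMSO and 973, 913 and 802 CPM in camptothecin. In mutants it had 713, 663 and 559 CPM in DMSO and 481, 470.0 and 507 CPM in camptothecin. The DMSO groups overlapped, and the camptothecin groups did not. It rose by 0.56 in wild types and fell by 0.41 in mutants, for an interaction of -0.97 ± 0.16 (adjusted p = 0.0195). Actin genes are paralogs whose sequences were not compared here, so the share of reads that belongs to actc1a itself is uncertain. For capzb the means were 331 ± 16 and 455 ± 17 CPM in wild types and 394 ± 27 and 329 ± 17 CPM in mutants (DMSO and camptothecin), with an interaction of -0.72 ± 0.14.

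Of the called genes with products at the cell surface or in the skin barrier, cdh1 and kcnk6 had a positive estimate and tgm1l4 a negative one. The epithelial adhesion gene cdh1 (E-cadherin) had 92.2, 99.5 and 95.1 CPM in wild-type DMSO and 52.6, 51.1 and 54.0 CPM in wild-type camptothecin libraries. In mutants it had 81.9, 71.9 and 85.4 CPM in DMSO and 72.2, 74.8 and 72.5 CPM in camptothecin. The wild types fell by 0.86, whereas the mutants were at -0.12 (adjusted p = 0.259), and the interaction was 0.74 ± 0.13 (adjusted p = 0.0195). All 3 mutant camptothecin libraries lay above all 3 wild-type ones.

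The potassium leak channel gene kcnk6 gave the largest positive called estimate, 0.97 ± 0.16 (adjusted p = 0.0195). Wild types had 62.9, 68.3 and 68.1 CPM in DMSO and 45.7, 37.3 and 39.1 CPM in camptothecin, a fall of 0.71. Mutants had 54.1, 44.3 and 56.1 CPM in DMSO and 64.5, 56.7 and 63.4 CPM in camptothecin, a rise of 0.26 just inside the threshold (adjusted p = 0.049996). Both treatments separated the genotypes, in opposite order. The transglutaminase gene tgm1l4, whose mammalian namesake cross-links proteins of the skin barrier, rose in both genotypes, by 1.35 in wild types and 0.51 in mutants (interaction -0.83 ± 0.17, adjusted p = 0.0406). Its wild-type camptothecin values were 284, 235 and 212 CPM, and the estimate was -0.62 with library 3 alone in that group. In bulk RNA of whole embryos, fewer cells of a type and less RNA per cell cannot be told apart.

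The called genes alas1, rnf139, syvn1 and ghitm act in heme synthesis, protein degradation or mitochondria. The housekeeping enzyme of the first step of heme synthesis, alas1, had 104, 83.3 and 92.9 CPM in wild-type DMSO and 253, 249 and 243 CPM in wild-type camptothecin libraries. In mutants it had 118, 115 and 104 CPM in DMSO and 167, 167 and 173 CPM in camptothecin. The DMSO libraries of the genotypes overlapped, and all wild-type camptothecin libraries lay above all mutant ones. It rose by 1.41 and 0.59, respectively (interaction -0.82 ± 0.14, adjusted p = 0.0195).

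The highest rise in wild types among the 19 was in rnf139, which encodes a ubiquitin ligase of the endoplasmic reticulum. It went from 14.9 ± 0.96 to 56.3 ± 4.9 CPM (1.92), and in mutants from 21.5 ± 3.6 to 44.1 ± 1.9 CPM (1.04), for an interaction of -0.88 ± 0.17 (adjusted p = 0.0347). A second ubiquitin ligase gene of that compartment, syvn1, which acts in the degradation of misfolded proteins, rose in wild types by 0.45 and fell in mutants by 0.29 (interaction -0.75 ± 0.13). The gene ghitm, whose human protein sits in the mitochondrial inner membrane, rose by 1.11 in wild types and was at 0.23 in mutants (adjusted p = 0.0911), with an interaction of -0.88 ± 0.16. Its values in wild-type camptothecin libraries spanned 105 to 109 CPM, against 69.7 to 82.4 CPM in mutants.

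Genes of DNA replication, chromatin and transcription completed the named roles. The replicative helicase subunit gene mcm7 had 906, 856 and 682 CPM in wild-type DMSO and 926, 1062 and 852 CPM in wild-type camptothecin libraries, which overlapped. In mutants it had 958, 1135 and 1019 CPM in DMSO and 677, 620.2 and 627 CPM in camptothecin, and these groups were well separated. It fell by 0.69 in mutants and was at 0.22 in wild types (adjusted p = 0.132), the one negative gene without a called rise there. Its interaction was -0.91 ± 0.17 (adjusted p = 0.0294).

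The homeobox gene otx2a, of the Otx family that patterns the forebrain and midbrain, rose by 0.33 in wild types, from 21.4 ± 0.96 to 26.8 ± 2.2 CPM, and fell by 0.61 in mutants, from 29.0 ± 2.2 to 19.1 ± 1.1 CPM (interaction -0.93 ± 0.16). The same crossing was seen for irf2bp2b, named for a corepressor that binds interferon regulatory factor 2 in mammals (0.53 and -0.29, interaction -0.82 ± 0.16). It was also seen for ss18, a subunit of BAF chromatin remodelling complexes (0.40 and -0.26, interaction -0.66 ± 0.13, the smallest called).

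In the reverse direction, si:dkeyp-118b1.2, listed as atxn7l3b in the RefSeq gene table, had 51.6, 53.9 and 55.1 CPM in wild-type camptothecin libraries and 81.8, 73.1 and 85.6 CPM in the mutant ones. The DMSO values were 56.6, 56.5 and 60.6 CPM in wild types and 55.1, 43.4 and 46.5 CPM in mutants. Mutants rose by 0.73, wild types were at -0.11 (adjusted p = 0.361), and the interaction was 0.84 ± 0.15. The remaining called genes, wbp2nl and zgc:154064 (listed as spats2 in the RefSeq table), rose in wild types by 0.94 and 0.86 and were at 0.13 and 0.12 in mutants. Their interactions were -0.82 ± 0.14 and -0.75 ± 0.14, and neither change in mutants was called.

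None of the p53 targets cdkn1a, mdm2, phlda3, ccng1 and bbc3 had a called interaction. The cell-cycle inhibitor cdkn1a (p21) had 6.47, 4.99 and 5.26 CPM in wild-type DMSO, 394, 487 and 542 CPM in wild-type camptothecin, 5.03, 6.30 and 7.05 CPM in mutant DMSO and 465, 494 and 492 CPM in mutant camptothecin libraries. Genotypes overlapped in both treatments. Its interaction was -0.12 with a 95% interval of -0.53 to 0.29 (adjusted p = 0.822), so the interval excludes a 2-fold difference between responses that each exceeded 6 on the log2 scale. A 2-fold difference was likewise outside the interval for mdm2, the ubiquitin ligase gene that restrains p53 (-0.03, interval -0.50 to 0.44), and for phlda3, a p53 target that inhibits Akt signalling (0.11, interval -0.22 to 0.44). For ccng1, at no more than 1.26 CPM in any library, the interval of -1.74 to 1.60 was too wide to exclude a 2-fold difference. The signs of cdkn1a, mdm2 and ccng1 turned with library totals (0.047, 0.13 and 0.084), where the median of all tested genes was 0.18.

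The apoptosis genes bbc3 and casp8 had positive estimates that were not called. The pro-apoptotic bbc3 (Puma) had 3.56, 3.75 and 4.37 CPM in wild-type DMSO and 3.06, 2.76 and 2.74 CPM in mutant DMSO libraries, which did not overlap. After camptothecin it had 165, 192 and 198 CPM in wild types and 187, 192 and 212 CPM in mutants, which did overlap. Its interaction was 0.54 (interval 0.17 to 0.91, adjusted p = 0.149). The initiator caspase gene casp8 had 74.4, 81.2 and 98.8 CPM in wild-type and 98.9, 106 and 106 CPM in mutant camptothecin libraries, after 8.24 ± 0.24 and 6.26 ± 1.1 CPM in DMSO. Its interaction was 0.69 (interval 0.30 to 1.08, adjusted p = 0.0945), and DESeq2 called it. The survival gene bcl2a was at 0.57 (interval -0.33 to 1.48, adjusted p = 0.568).

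**Figure D3:**
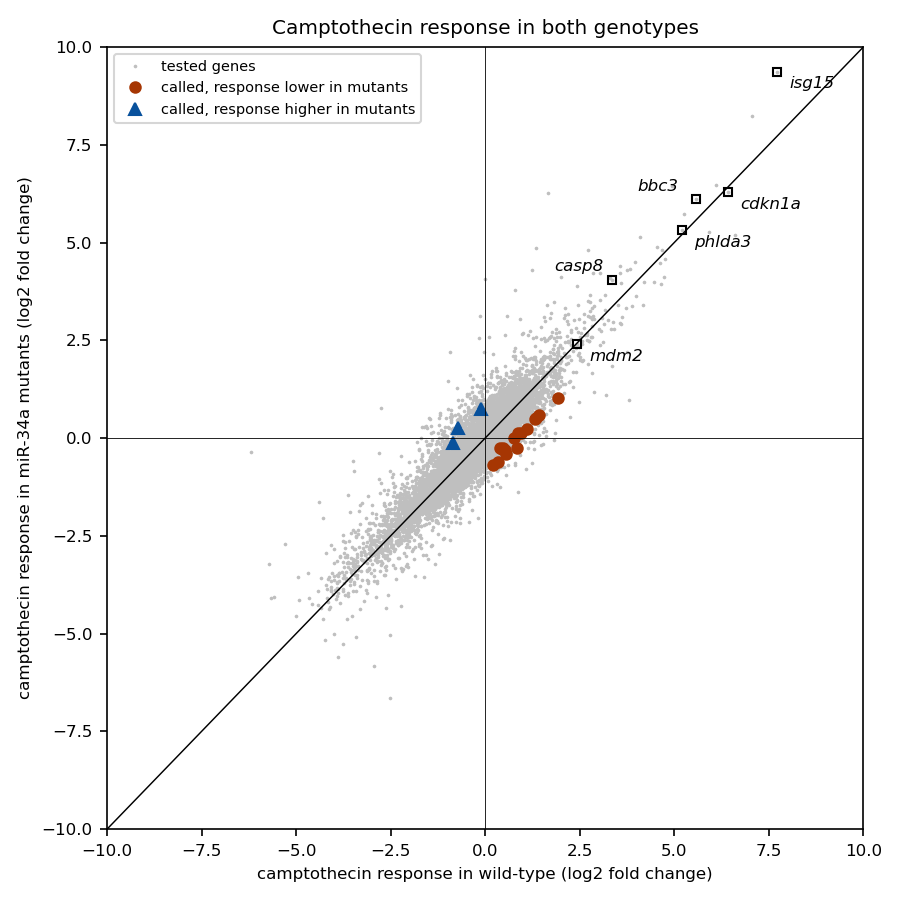
Each grey point is a tested gene, placed by its camptothecin log2 fold change in wild types (x axis) and in mutants (y axis), and the diagonal marks equal responses. Called genes lie within 1.10 of the diagonal, below it (16, brown circles) or above it (3, blue triangles), whereas the open squares of cdkn1a, mdm2 and phlda3 lie at 6.41 and 6.29, 2.43 and 2.40, and 5.20 and 5.31.

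The lists of pathways and cell types hold 764 tested genes, of which cdh1 and mcm7 were called, beside 0.160% of all tested genes. At that share most lists of this size would have 0 called members, so a 0 says little about a list. Counts of members with an unadjusted p under 0.05 stand beside 6.98% positive and 8.17% negative over all tested genes. Both directions together, they made up 3.85% (notochord and cartilage) to 27.3% (p53 targets) of a list, beside 15.1% of all tested genes. DESeq2 called 5.70% of the genes with an adjusted p. Of the uncalled genes with the lowest p in a list, it called ddb1, smc4, hsp90b1, cct2, cry1aa, sox3, acta1b, col9a1b, cryba1b, lcp1, gata2a, sox9b, casp8 and cdk4. These genes were picked for a low edgeR p in the same libraries, so the DESeq2 calls are not separate support. Of the 190 genes with an edgeR adjusted p under 0.1, DESeq2 called 171. Among 33 p53 targets, 0 were called, 6 positive and 3 negative members (27.3% together) had an unadjusted p under 0.05, and the median estimate was 0.098, beside 0.0038 over all tested genes. For 25 of the 33 the 95% interval lay within -1 to 1. Of the 24 p53 targets with a DESeq2 adjusted p, that test called 3. Of 32 genes of the apoptosis machinery 0 were called (5 positive and 2 negative at an unadjusted p under 0.05, median 0.17). DNA damage signalling and repair had a median of -0.02 over 35 genes, 2 positive and 4 negative at that level, and intervals within -1 to 1 for 33 of them. Its lowest p belonged to ddb1, a subunit of a ubiquitin ligase that recognises damaged DNA (-0.59, adjusted p = 0.0789).

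Of 47 genes of G1/S and DNA replication 1 was called, mcm7, and 10 negative and 2 positive members (25.5% together, beside 15.1% of all tested genes) had an unadjusted p under 0.05, with a median of -0.03. G2/M and mitosis genes had 0 of 36 called, 6 negative and 1 positive at that level, and a median of -0.14. The condensin subunit gene smc4 led them, falling by 0.70 in wild types and by 1.31 in mutants, with an interaction of -0.60 (adjusted p = 0.0795). The topoisomerase genes top2a (-0.07, interval -0.43 to 0.29) and top1l (-0.05, interval -0.41 to 0.30) were not called. Both turned positive with library totals (0.11 and 0.13), where the median of all tested genes was 0.18.

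Genes known as miR-34 targets in mammals had 0 of 48 members called, beside 0.160% of all tested genes, a share at which 0 is the usual count. In this list 4 positive and 5 negative members had an unadjusted p under 0.05, that is 18.8% of the list beside 15.1% of all tested genes, and the median estimate was -0.05. The cyclin-dependent kinase gene cdk4 had the lowest p. It had 32.9, 31.6 and 32.9 CPM in wild-type DMSO and 67.0, 68.0 and 69.9 CPM in wild-type camptothecin libraries, against 39.1, 44.6 and 39.6 CPM and 62.4, 57.7 and 56.2 CPM in mutants. Mutant libraries lay above wild-type ones in DMSO and below them in camptothecin, and the interaction was -0.56 ± 0.14 (adjusted p = 0.0789, called by DESeq2). Of the 34 list members with a DESeq2 adjusted p, that test called 3, beside 5.70% of all genes with one. The Notch receptor gene notch1a was at -0.51 (interval -0.87 to -0.15, adjusted p = 0.157) and mycn at -0.26 (interval -0.55 to 0.02, adjusted p = 0.368).

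Of 32 inflammatory and interferon genes 0 were called, beside 0.160% of all tested genes. An unadjusted p under 0.05 was found for 8 positive and 0 negative members (25.0% of the list, beside 6.98% positive and 8.17% negative of all tested genes). The median was 0.28, or 0.42 without wild-type camptothecin library 3 and with libraries 1 and 2 kept. The ubiquitin-like interferon-stimulated gene isg15 had 1.08, 1.10 and 0.382 CPM in wild-type DMSO and 0.306, 0.175 and 0.507 CPM in mutant DMSO libraries. After camptothecin it had 176, 142 and 218 CPM in wild types and 189, 244 and 219 CPM in mutants, with overlap in both treatments. Its interaction was 1.65 (interval 0.50 to 2.81, adjusted p = 0.162), and DESeq2 called it. The interferon regulatory factor gene irf1b was lower in mutants under DMSO, 0.738 ± 0.18 against 3.61 ± 1.7 CPM (SD, n = 3), and reached 8.43 ± 1.6 and 12.7 ± 3.2 CPM after camptothecin. Its interaction was 1.66 (adjusted p = 0.119), while the rise in CPM itself was smaller in mutants by 1.40 CPM. This gene had the lowest p of the list, and DESeq2 did not call it. Only 10 of the 32 members had an interval within -1 to 1.

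Immediate early and AP-1 genes had a median of -0.10 over 34 members (1 positive and 3 negative at an unadjusted p under 0.05), with the nuclear receptor gene nr4a1 at -0.91 (adjusted p = 0.124) and fosab at -0.63 (interval -1.21 to -0.05, adjusted p = 0.288). Integrated stress and unfolded protein response genes had a median of 0.02 over 34 (1 and 5), with the chaperone gene hsp90b1 of the endoplasmic reticulum at -0.82 (adjusted p = 0.0817). Heat shock and chaperone genes had a median of -0.11 over 30 (2 and 3), with the chaperonin subunit gene cct2 at -0.54 (adjusted p = 0.117). Circadian clock genes had a median of -0.16 over 34 (2 and 6), with the cryptochrome gene cry1aa at -0.63 (adjusted p = 0.11). None of the members of these 4 lists was called by edgeR, beside 0.160% of all tested genes. In the order given, DESeq2 called 0 of 17, 2 of 26, 1 of 25 and 2 of 16 members with an adjusted p. It called 5.70% of all genes with an adjusted p.

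**Figure D4:**
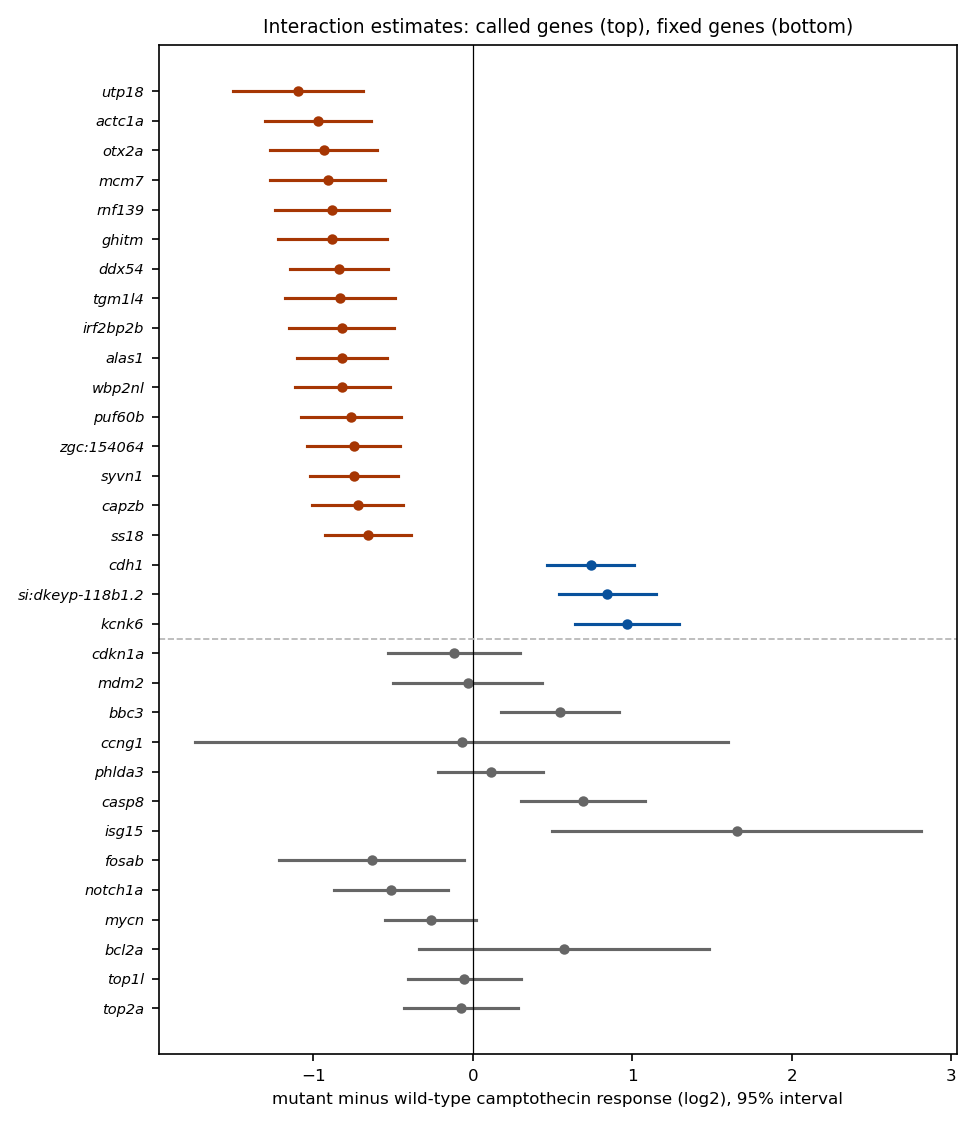
Points are interaction estimates (x axis, log2, mutant minus wild-type response) with 95% intervals for the 19 called genes above the dashed line and for 13 genes of the damage response, of miR-34 targets and of topoisomerases below it. The called estimates run from -1.10 for utp18 to 0.97 for kcnk6, and the intervals of cdkn1a, mdm2 and phlda3 include 0 and stay within -1 to 1.

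Among cell type markers, skeletal muscle had the lowest median, -0.30 over 41 genes, with 2 positive and 9 negative members at an unadjusted p under 0.05 (26.8% of the list, beside 15.1% of all tested genes). Without wild-type camptothecin library 3, and with libraries 1 and 2 kept, its median was -0.47. The alpha actin gene acta1b had 2605, 2348 and 2269.7 CPM in wild-type DMSO and 1561, 1712 and 1331 CPM in wild-type camptothecin libraries, against 2944, 2814 and 2278 CPM and 1038, 728 and 875 CPM in mutants. All mutant camptothecin libraries lay below all others. It fell by 0.65 in wild types and by 1.60 in mutants (interaction -0.96 ± 0.20, adjusted p = 0.056), and its reads may be shared with other actin genes. In DESeq2, 7 of the 29 muscle genes with an adjusted p were called, beside 5.70% of all genes with one.

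Differentiating neurons had a median of -0.16 over 40 genes (1 positive and 5 negative at an unadjusted p under 0.05), with the homeobox gene phox2bb at -0.54 (adjusted p = 0.16). Neural progenitors had -0.09 over 33 (2 and 2), with sox3 falling by 0.29 in wild types and 0.90 in mutants (interaction -0.62, adjusted p = 0.0789). Lens and retina had -0.13 over 33 (0 and 7), with the crystallin gene cryba1b at -0.74 (adjusted p = 0.122). Notochord and cartilage had -0.21 over 26 (0 and 1), with the collagen gene col9a1b at -0.61 (adjusted p = 0.0741).

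Myeloid leukocytes had the highest median, 0.37 over 18 genes (2 positive and 2 negative at an unadjusted p under 0.05). Only 5 of the 18 had an interval within -1 to 1. The gene with the lowest p, the actin-bundling lcp1, was negative (-0.70, adjusted p = 0.0795). Heart had 0.08 over 23 (1 and 0), with nppb at 1.06 (interval 0.02 to 2.11, adjusted p = 0.323). That gene had no more than 2.83 CPM in any library. Hox genes had 0.12 over 42 (5 and 1), with hoxd4a at 0.41 (adjusted p = 0.249). Neural crest and pigment had 0.03 over 30 (3 and 5), with sox9b at -0.61 (adjusted p = 0.103). Endothelium had -0.05 over 28 (2 and 2), with gata2a at -0.70 (adjusted p = 0.0796). Erythroid cells had -0.03 over 30 (3 and 0), with nt5c2l1 at 0.51 (adjusted p = 0.206). Hatching gland and yolk syncytial layer had -0.02 over 32 (3 and 4), with the yolk protein gene vtg3 (adjusted p = 0.158) at no more than 0.808 CPM in any library. Epidermis had -0.02 over 28 (2 and 3), including the called cdh1. Of the 28, 17 were negative, and estimates ran from -1.09 (the keratin gene krt4, adjusted p = 0.072, not called) to 0.74 (cdh1). With library totals, where the median of all tested genes was 0.18, the medians of most negative lists turned positive. Those of skeletal muscle (-0.12) and of notochord and cartilage (-0.04) did not. Relative to that overall median, lists stayed close to their values with TMM factors. Examples are -0.17 for differentiating neurons, -0.14 for G2/M and mitosis and -0.29 for skeletal muscle.

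**Figure D5:**
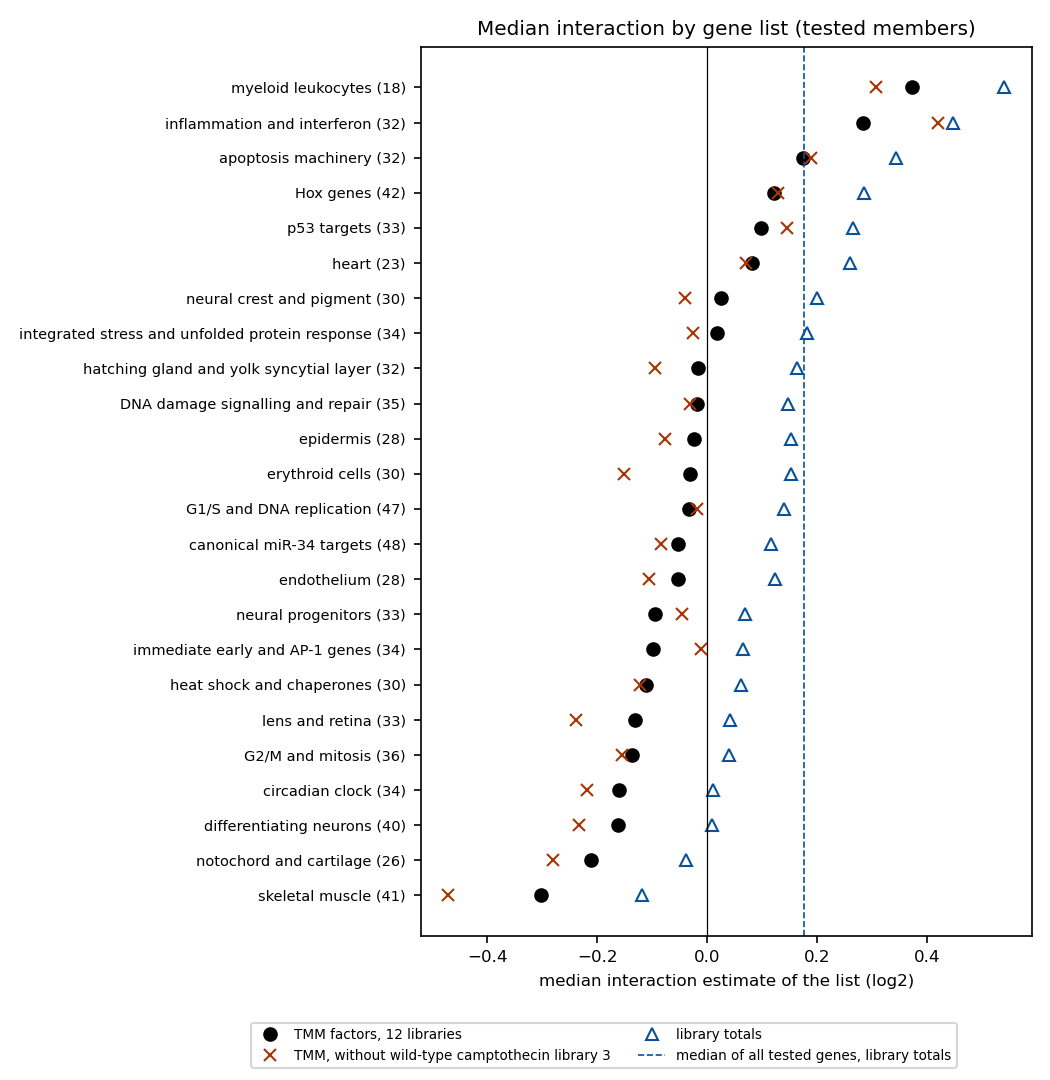
Median interaction estimate (x axis, log2) of the tested members of each list (y axis, number tested in brackets) with TMM factors (black), without wild-type camptothecin library 3 (crosses) and with library totals (triangles), whose overall median of 0.18 is the dashed line. With TMM factors the medians run from -0.30 for skeletal muscle to 0.37 for myeloid leukocytes.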

How the data were processed

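The authors deposited 1 table of raw counts, whole numbers for 15265 gene symbols in 12 libraries, not normalised. HTSeq 0.9.1, STAR 2.7, Bowtie2, Trim Galore 0.4.4 and Picard 2.5.0 are listed, with genome build danRer11, per the submitters' processing notes. Which annotation and strand option were used, and how multi-mapping reads were counted, is not given in the sources used here. Near-identical, overlapping and antisense genes are therefore uncertain. Columns were assigned to samples through the genotype, treatment and number in their names.

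Genes passing filterByExpr (11866) were fitted in edgeR 4.0.16 (R 4.3.3) with TMM factors as 4 group means, with robust quasi-likelihood dispersion, 8 residual degrees of freedom and no blocking. The threshold for a call was 0.05 after Benjamini-Hochberg adjustment over all tested genes. All adjusted p-values are from this test unless another tool is named. CPM are TMM-scaled. Standard errors are the estimate over the square root of F, and 95% intervals use the t distribution. Alternatives were DESeq2 1.42.0, limma-voom (limma 3.58.1), other scalings, no filter, thinning, a replicate block and each library left out.

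Named genes were the 15 called with the smallest p and the 5 with the largest estimates in each direction, up to 2 called members of each of 24 lists (or the 1 with the smallest p), and 14 fixed genes. The 19th called gene, tgm1l4, fell outside this rule and was added after its value was seen. The same holds for puf60a, krt4 and the groups of rows in the closing section. Genes and lists were chosen with earlier results of these data known. Of 1000 list entries 895 matched the table, 18 through synonyms. Gene names in the RefSeq table come from assembly GRCz12tu, another build, so no coordinates are given.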

Additional observations from a re-analysis of the deposited data

Results flagged for a closer look

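The 19 called genes were picked out because the test of the difference between genotypes passed its threshold. The interaction estimates (log2, mutant minus wild-type response) were 0.97 for kcnk6, 0.84 for si:dkeyp-118b1.2 and 0.74 for cdh1. They were -0.97 for actc1a, -0.82 for alas1, -0.93 for otx2a, -0.82 for wbp2nl, -0.84 for ddx54, -0.75 for syvn1 and -1.10 for utp18. The others were -0.88 for ghitm, -0.75 for zgc:154064, -0.72 for capzb, -0.91 for mcm7, -0.82 for irf2bp2b, -0.88 for rnf139, -0.66 for ss18, -0.76 for puf60b and -0.83 for tgm1l4. With wild-type camptothecin library 3 alone in its group the same genes ran from -1.01 (utp18) to 1.04 (kcnk6), and with library totals from -0.91 to 1.14.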

How the results depend on the processing

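The count of 19 called genes was 19 with DESeq2-type size factors, 20 with limma-voom, 18 with thinned libraries and 25 with the replicate block. It was 35 without the filter on low counts, 343 with DESeq2, 7 with library totals and 55 with wild-type camptothecin library 3 alone in its group, an alternative added after the data were seen, in which that library is assumed to vary like the other groups. Leaving out 1 library gave 0 to 505. Under library totals the estimates of cdkn1a (0.047), mdm2 (0.13), ccng1 (0.084), top1l (0.13) and top2a (0.11) turned positive, as did ccng1 with limma-voom (0.19), mdm2 with thinning (0.013), and top1l (0.039) and top2a (0.20) with library 3 alone. Without 1 library mdm2 ran from -0.20 to 0.14, ccng1 from -0.52 to 0.83, top1l from -0.20 to 0.045 and top2a from -0.20 to 0.017. None of these was called, and the cause was not tested. Under library totals each of these genes lay below the median of all tested genes (0.18), as it did with TMM factors (0.0038). Same-numbered libraries deviated together (r over 0.1) in 3 of 18 pairs, and in 10 of 36 comparisons a library correlated best with its own number, so the numbers were not taken to pair the samples. With 3 libraries a group the median SE was 0.22, and the smallest estimate that was called had a size of 0.66.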

Other observations

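Rows of microRNA precursors were picked out after their values were known. Of 46 tested rows, 43 had a positive and 3 a negative estimate, with a median of 1.09 on the log2 scale. The median camptothecin change of these rows was -0.52 in wild types and 0.53 in mutants. Most rows were low, with a median of their mean levels of 1.14 CPM. None was called, 1 (mir133b, 1.69, adjusted p = 0.069) was under 0.1, and 14 positive and 0 negative rows had an unadjusted p under 0.05 (beside 6.98% and 8.17% of all tested genes). Their summed level was 105, 107 and 118 CPM in wild-type DMSO, 97.7, 95.7 and 103 CPM in mutant DMSO and 99.6, 112 and 101 CPM in mutant camptothecin libraries. In wild-type camptothecin libraries 1, 2 and 3 it was 29.3, 63.1 and 107 CPM. In this sum libraries 1 and 2 alone lay below all others, and library 3 lay among them. The row mir133b was at -0.07 in wild types and rose by 1.62 in mutants, from a mean of 2.99 to 9.11 CPM. With 1 library left out at a time, the median ran from 0.73 to 1.79, and it was 1.79 without library 3.

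The 7 actin genes acta1a, acta1b, acta2, actb1, actb2, actc1a and actc1b, also chosen after their values were seen, all had negative estimates, from -0.97 to -0.15 with a median of -0.70, and 1 of them turned positive with library totals. Besides the called actc1a (0.160% of all tested genes were called), 4 had an adjusted p of 0.05 to 0.1. So did 171 of all 11866 tested genes. Reads may be shared between these paralogs, so the 7 estimates may not be independent. Of 17 nuclear pore rows 14 were negative (median -0.35), 8 negative and 0 positive had an unadjusted p under 0.05 (beside 8.17% and 6.98% of all tested genes), and with library totals 10 were negative (median -0.16). Of 80 rows of the respiratory chain and ATP synthase 45 were negative and 35 positive (median -0.06). With library totals this turned to 27 negative and 53 positive (median 0.12, beside 0.18 over all tested genes).

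Among the 171 genes (those named here were likewise chosen after their values were seen) with an adjusted p of 0.05 to 0.1, 132 were negative and 39 positive. Among them, mycbp2 (adjusted p = 0.069) had 0.0898, 0.0643 and 0.0734 CPM in the mutant camptothecin libraries, 1 or 2 counts each, and 0.472, 0.449 and 0.484 CPM in the wild-type ones, so no fold is given. The interferon gene ifnphi3 (adjusted p = 0.0899) stayed at or below 0.901 CPM in every library. The keratin gene krt4 (-1.09, adjusted p = 0.072) had 6031, 5277 and 3178 CPM in the wild-type camptothecin libraries, so library 3 lay nearest to the mutants at 2460, 2436 and 2496 CPM. Over the 19 called genes, the wild-type camptothecin library nearest to the mutant mean was library 3 for 10, library 1 for 6 and library 2 for 3. The same count over all tested genes is not given, so it only describes the 19.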
